A study of Mus musculus with 61 samples.

Results

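A set of 10 transcription factor genes that act downstream of antigen receptor signals were followed through this experiment, namely Batf, Batf3, Jun, Junb, Jund, Fos, Fosl2, Nfatc1, Nfil3 and Nr4a1. They were taken by symbol from the count tables, as 10 of the 24421 genes listed there, and each of the 10 was tested in every material. In T cells that lacked Stat5a/b, Batf3, Junb and Nfil3 had higher levels under the activating STAT5B N642H and STAT5B Y665F than under an empty vector. Against unmutated STAT5B none of the 10 genes passed the test for either variant, where 0.0845% and 0.0199% of all genes did. None passed with STAT5B Y665H against the empty vector, where 0.0249% of all genes did. In splenic T cells cultured with interleukins, Nfil3 was highest in Y665F cells, and Jun and Fosl2 were also higher there than in Y665H cells. Batf itself passed the test in none of the 21 comparisons.

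AP-1 is a dimer of basic leucine zipper proteins, usually a JUN protein with a FOS protein, and it is produced within minutes to hours of receptor stimulation. BATF and BATF3 are small members of the same superfamily that pair with JUN proteins and bind composite DNA elements together with IRF4 or IRF8. NFAT proteins enter the nucleus when calcineurin removes their phosphates, and they often bind DNA beside AP-1. STAT5B, activated by IL-2 and IL-7, acts through a separate palindromic DNA element, and NFIL3 is a repressor of the same zipper class that is known to be induced by cytokines.

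The CD4 T cells were naïve cells of C57BL/6 mice aged 2 months, drawn from pooled lymph nodes and spleens, activated with antibodies to the T-cell receptor and CD28, and transduced with a retroviral vector that was empty or carried STAT5B, either unchanged or with N642H, Y665H or Y665F. They were kept for 48 h with IL-2 and sorted as GFP-positive CD4 cells, with 3 libraries per vector from WT mice and 3 from Stat5a/b-null mice, in which Cre under the Cd4 promoter removes floxed Stat5a/b during T-cell development in the thymus. The genotype label names the floxed alleles for all 30 libraries, so the background was read from the sample titles. Splenic T cells isolated by kit came from WT mice and from knock-in mice with STAT5B Y665H or STAT5B Y665F, 4 libraries of each after 24 h in IL-2 plus IL-7, and 3 further libraries of Y665F cells that received no interleukin. No culture time is given for these 3, so in comparisons with them the interleukins cannot be told apart from 24 h of culture. Spleens of the same genotypes gave 4 WT, 5 Y665H and 7 Y665F libraries. The splenic T cells and spleens also came from C57BL/6 mice aged 2 months. The knock-in change is carried by every cell of the mouse, and the retroviral cells express it from a vector beside, in WT cells, their own Stat5a/b. The labels do not state which libraries came from separate animals or cultures, so that the p-values measure the spread between libraries only.

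A CD4 library held 18825994 to 49850689 reads assigned to genes. The splenic T-cell libraries were the shallowest, at 2017012 to 27394249, and the spleens held 24203179 to 43330536. Stat5b, the gene deleted in the null cells, lay between 2.78 and 9.49 CPM (reads scaled to library size by the TMM method) in null cells with the empty vector and between 186 and 365 CPM with the other vectors. It lay between 187 and 209 CPM in WT cells with the empty vector. Socs2, a textbook STAT5 target, ranged from 2.86 to 7.25 CPM with the empty vector, from 238 to 329.9 CPM with N642H and from 15.7 to 27.5 CPM with Y665H in null cells. The CD4 libraries held 633 CPM or more of Cd4 and at most 0.449 CPM of Cd8a. Replicate 3 of the Y665F splenic T cells with interleukins stood apart, with summed levels of 722 CPM for 8 B-cell markers and 1076 CPM for the erythroid markers, and replicate 1 of the Y665H spleens had 760 CPM of the erythroid markers where the other Y665H spleens had 3572 CPM or more. Among the WT CD4 libraries, those numbered 3 were the lowest in 5 of 5 vectors for Batf3, Fos, Nfil3 and Socs2 and the highest in 5 of 5 for Nfatc1 and Nr4a1. Values of the genes named are given without these libraries where that changes a call or moves a count by over 1.5 times. They are also given for the calls that rest on these libraries. The WT libraries numbered 3 stood out by values of genes among the 10. Leaving them out narrows the spread of those genes, so p-values of those genes without them are no separate support.

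Per kilobase of exon, Jund and Junb were the most abundant of the 10 genes in each of the 10 CD4 groups. Jund, the most constantly expressed JUN protein in resting tissue, had group means of 264 to 551 CPM per kb, and Junb had 178 to 273 CPM per kb. Nr4a1, the nuclear receptor NUR77 that is induced by antigen receptor signals, came next in every CD4 group. In splenic T cells of WT mice Jund led with 32.0 CPM per kb, ahead of Jun with 22.4 and Fos with 20.8 CPM per kb. In WT spleens Nfatc1 led with 22.7 CPM per kb, ahead of Jund with 14.0 CPM per kb. The materials were scaled separately, so these levels stand side by side and were not tested against each other.

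**Figure D1:**
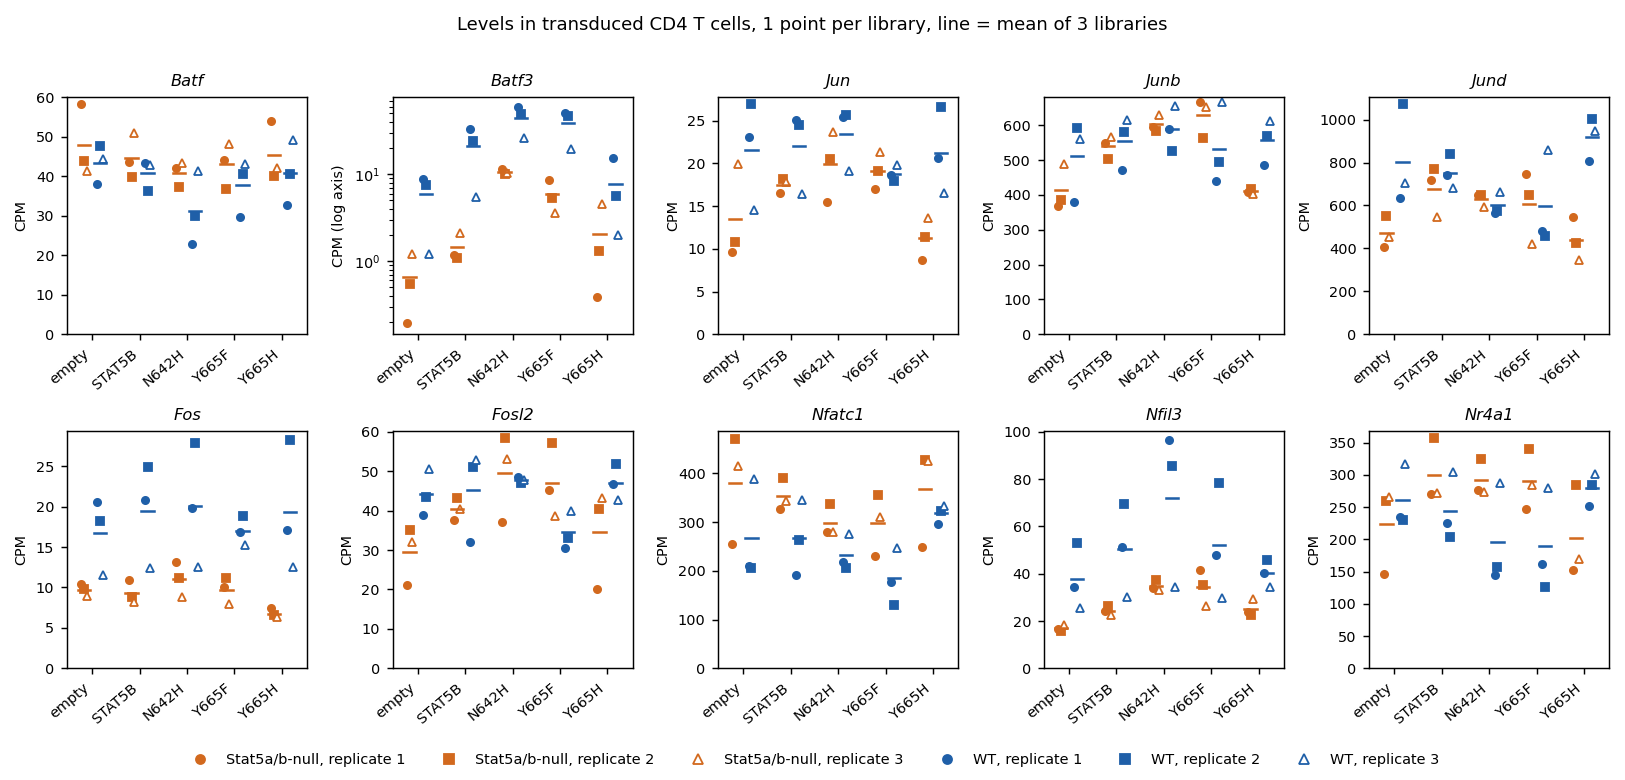
CPM of each of the 10 genes (vertical axis, logarithmic for Batf3 and linear from 0 for the others) in CD4 T cells by retroviral vector, with 1 point per library and a line at the mean of 3 libraries, null cells in orange and WT cells in blue. Batf3 in null cells lies between 10.2 and 11.6 CPM with N642H and between 0.192 and 1.21 CPM with the empty vector, and the open triangles mark the libraries numbered 3.

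In null CD4 cells, 3 of the 10 genes passed the test for N642H against the empty vector, where 11.6% of all 20113 genes tested did, and 3 passed for Y665F, where 9.58% did. A gene passed with a Benjamini-Hochberg adjusted p under 0.05 over all genes of the fit in edgeR's quasi-likelihood test. The same 3 genes, Batf3, Junb and Nfil3, passed in both comparisons and were higher in both, and the comparisons share the 3 empty-vector libraries. With STAT5B itself 0 of the 10 passed, against 1.52% of all genes. An unadjusted p under 0.05 was found for 3 of the 10 and for 2973 of all 20113 genes, and DESeq2 called 2. Y665H gave 0 of 10, against 0.0249% of all genes. Here 3 of the 10 and 1021 of all 20113 genes had an unadjusted p under 0.05, and DESeq2 called 0. Across the 10 genes the median log2 fold change was 0.44 with N642H, 0.41 with Y665F, 0.39 with STAT5B and −0.046 with Y665H, and that of all genes lay between −0.024 and 0.035. T-cell markers, by contrast, were lower for 6 of 12 and higher for 1 with each activating variant, with summed levels of 4595 to 4937 CPM for N642H, 4690 to 5324 CPM for Y665F and 5472 to 6254 CPM for the empty vector, and the part of this in the results was not tested.

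Set directly against STAT5B in null cells, none of the 10 genes passed in edgeR's test. Of all genes, 0.0845% passed for N642H, 0.0199% for Y665F and 0.229% for Y665H in these comparisons. Unadjusted p-values under 0.05 were found for 2 genes with N642H and for 2 with Y665F, Batf3 and Nfil3 in each. With Y665H they were found for 5 genes, namely Jun, Junb, Jund, Fos and Nr4a1. Of all 20113 genes, 1221 with N642H, 1000 with Y665F and 2126 with Y665H had such a value. DESeq2 called 1, 0 and 0 of the 10 genes. Their medians on the log2 scale were 0.14, 0.076 and −0.28 over the 10 genes, in the same order.

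Libraries with the same number deviated together in the null cells, with r above 0.1 in 30 of 30 pairs, and with the replicate number as a block more genes passed. The block gave 3 of 10 for STAT5B against the empty vector (9.50% of all genes), 6 for N642H (20.5%), 5 for Y665F (18.4%) and 0 for Y665H (0.149%). Against STAT5B it gave 1 for N642H (0.875%), 0 for Y665F (0.512%) and 4 for Y665H (4.18%). The 4 genes lower with Y665H than with STAT5B under the block were Jun, Junb (−0.37, adjusted p = 0.0261), Jund and Nr4a1 (−0.58, adjusted p = 0.0204).

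In WT CD4 cells, in the fit without a replicate block, none of the 10 genes passed for any vector against the empty vector in edgeR's test. The share of all 20509 genes that passed was 0.00975% for STAT5B, 1.52% for N642H, 1.26% for Y665F and 0.00488% for Y665H. The numbers of the 10 genes with an unadjusted p under 0.05 were 1, 3, 1 and 0. The numbers among all genes were 555, 2164, 2932 and 163. DESeq2 called 0, 1, 1 and 0 of the 10. An alternative chosen after seeing the data left out the WT libraries numbered 3. Then 1 gene passed for STAT5B (0.662% of all genes), 4 for N642H (5.59%), 3 for Y665F (7.78%) and 0 for Y665H (0.00556%). Batf3, Nfil3 and Nr4a1, by which those libraries stood out, were among the genes that passed.

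Null cells with the empty vector were lower than WT cells with the empty vector for 3 of the 10 genes, Batf3, Jund and Nfil3, where 13.9% of all 21975 genes passed in either direction. Without the WT libraries numbered 3, and with the null ones kept, these 3 passed and Jun, Fos and Nfatc1 were added, against 17.4% of all genes. The median log2 difference was −0.63 for the 10 genes and −0.12 for all genes. The response to a vector in null cells was set against that in WT cells by an interaction term. For this term 0 of the 10 genes passed for N642H (0.387% of all genes) and 0 for Y665F (0.478%). The median log2 difference over the 10 genes was 0.39 and 0.55, beside 0.11 and 0.071 over all genes. An unadjusted p under 0.05 was found for 1 and 5 of the 10, beside 2255 and 2049 of all 21975 genes. DESeq2 called 0 for both. With a replicate block of its own in each background, also chosen after seeing the data, 2 genes passed for N642H (4.36% of all genes) and 3 for Y665F (4.11%).

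**Figure D2:**
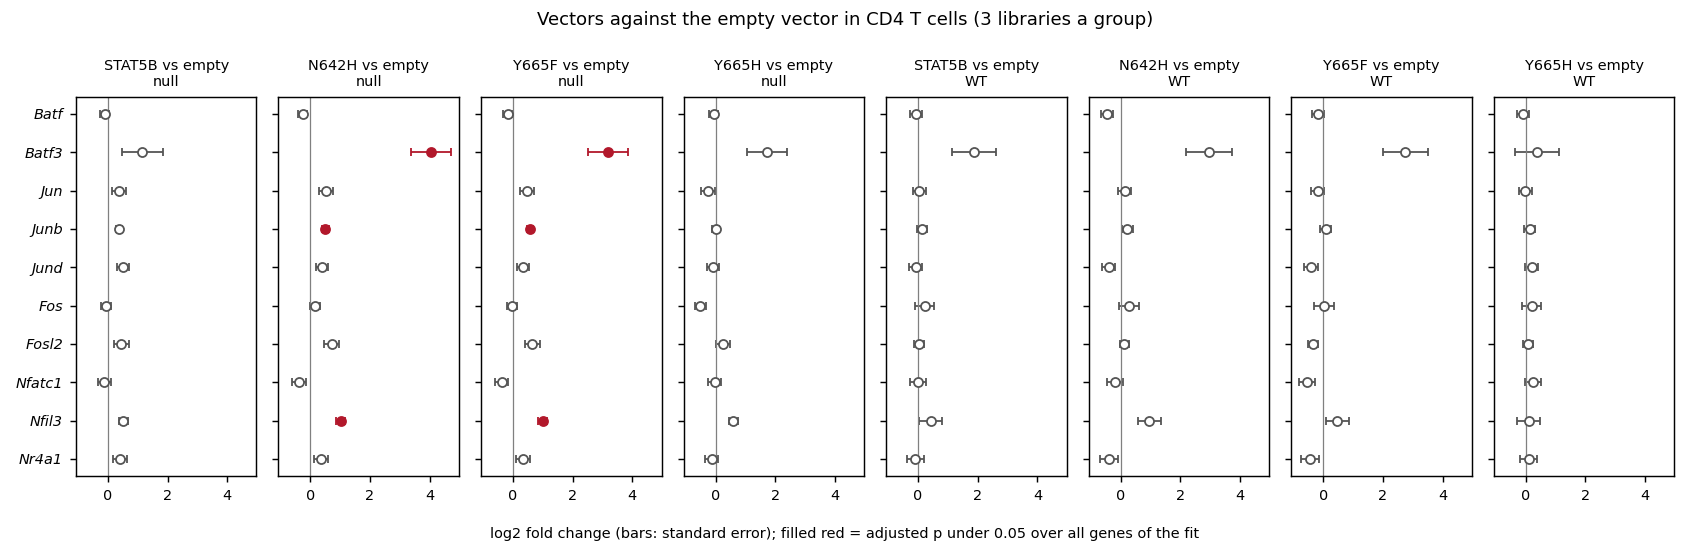
Log2 fold change of the 10 genes against the empty vector (horizontal axis, bars for the standard error) for 4 vectors in null cells and 4 in WT cells, filled red where the adjusted p is under 0.05. The 6 filled points are Batf3 at 4.04 and 3.18, Junb at 0.50 and 0.57 and Nfil3 at 1.01 and 0.99 for N642H and Y665F in null cells.

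The 3 genes that rose with the activating variants in null cells are shown with the DNA before their start sites, taken from RefSeq on GRCm38.p6, to let their sequences be compared. Of the 250 bases before the start, the stretch outside annotated exons is given 5′ to 3′ on the strand of the gene, with motif matches in capitals. The motifs searched on both strands were the STAT element TTCNNNGAA, the AP-1 element TGANTCA, the CRE half-site TGACG and the NFAT core GGAAA, and 9 of the 10 genes had a promoter entry. Batf3 was the 1 gene of the 9 with a STAT element, 239 bases before the start, and 7.02% of 32851 promoters hold one. None of the 9 held the AP-1 element, found in 6.75% of promoters. The CRE half-site stood in 5 of the 9, Junb and Nfil3 among them, against 17.8% of promoters, and the NFAT core in 3 of 9, against 55.6%. A match describes letters in this window and not a bound site. The windows shown are Batf3 at chr1:191098164-191098324 on the plus strand, Junb at chr8:84978749-84978998 on the minus strand and Nfil3 at chr13:52981074-52981289 on the minus strand. The start of Batf3 in RefSeq differs from that in GENCODE vM21, which places the gene from 191097847 on, so the window shown for Batf3 lies inside the gene as GENCODE has it.
Batf3: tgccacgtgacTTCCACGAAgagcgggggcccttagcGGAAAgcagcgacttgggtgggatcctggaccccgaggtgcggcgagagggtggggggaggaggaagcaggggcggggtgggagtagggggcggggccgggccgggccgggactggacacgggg
Junb: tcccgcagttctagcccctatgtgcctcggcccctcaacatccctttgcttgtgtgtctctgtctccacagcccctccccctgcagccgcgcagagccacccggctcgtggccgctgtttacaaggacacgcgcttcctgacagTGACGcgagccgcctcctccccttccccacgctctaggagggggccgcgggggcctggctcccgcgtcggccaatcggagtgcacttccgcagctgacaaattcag
Nfil3: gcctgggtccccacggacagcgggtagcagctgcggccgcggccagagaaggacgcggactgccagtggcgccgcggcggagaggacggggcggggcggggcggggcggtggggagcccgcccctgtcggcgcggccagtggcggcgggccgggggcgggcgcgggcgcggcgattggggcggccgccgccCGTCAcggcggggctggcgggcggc

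Batf3 (ENSMUSG00000026630, GRCm38 chromosome 1, 191097847 to 191108945, plus strand in the GENCODE vM21 annotation) encodes the BATF family protein best known for the development of type 1 conventional dendritic cells. In null cells the 3 empty-vector libraries had 0.192, 0.551 and 1.21 CPM, from 7, 19 and 35 reads. With STAT5B they had 1.18, 1.09 and 2.10 CPM, and with Y665H 0.391, 1.30 and 4.55 CPM. With N642H they had 11.6, 10.2 and 10.3 CPM, and with Y665F 8.68, 5.31 and 3.59 CPM. The N642H libraries lay above all others in the null cells, the Y665F libraries lay above the empty vector and STAT5B, and the Y665H libraries overlapped the empty vector, STAT5B and Y665F.

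With N642H, Batf3 lay 16.4-fold above the empty vector (log2 fold change 4.04, standard error 0.67, adjusted p = 0.000826 in edgeR's test). With Y665F the log2 fold change was 3.18 with a standard error of 0.66 (adjusted p = 0.00523). In bulk RNA, fewer cells that express a gene and less RNA per cell cannot be told apart. Both calls held with each library left out in turn, with log2 fold changes from 3.62 to 4.82 for N642H and from 2.76 to 3.97 for Y665F. Against STAT5B, the N642H value was 2.87 with a standard error of 0.62 and missed the threshold (adjusted p = 0.114), and it passed with the replicate block at 2.96 (adjusted p = 0.00425).

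In WT cells Batf3 had 8.84, 7.51 and 1.199 CPM for the empty vector, 33.3, 24.2 and 5.48 CPM for STAT5B and 15.6, 5.58 and 1.98 CPM for Y665H. The N642H libraries had 58.6, 49.1 and 26.0 CPM and the Y665F libraries 51.0, 47.0 and 19.7 CPM. The library numbered 3 was the lowest for every vector, and the N642H and Y665F libraries lay above the empty-vector libraries for both. The log2 fold changes were 2.95 for N642H with an adjusted p of 0.0756 and 2.75 for Y665F with an adjusted p of 0.0947 in edgeR's test. Without the libraries numbered 3 they were 2.73 (adjusted p = 9.05e-05) and 2.59 (adjusted p = 0.000184), and STAT5B reached 1.84 (adjusted p = 0.0125). Because those libraries stood out by Batf3 itself, the p-values without them are no separate support.

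Null cells with the empty vector had less Batf3 than WT cells (log2 difference −3.21, standard error 0.85, adjusted p = 0.011), and 1 WT library with 1.199 CPM lay just below the highest null library with 1.21 CPM. The call was lost without null empty-vector replicate 1 (adjusted p = 0.0654) or 2 (adjusted p = 0.0527). The defining dendritic cell genes Xcr1 and Clec9a were at or below 0.667 and 0.338 CPM in every CD4 library. The summed level of the 5 listed dendritic cell genes was 11.5 to 13.2 CPM with N642H and 14.2 to 25.5 CPM with the empty vector in null cells, and of this sum Cadm1, a cell adhesion gene that other cells express too, had means of 7.74 and 16.2 CPM. The part of such cells in the Batf3 level was not tested.

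Splenic T cells gave from 0 to 6 Batf3 reads per library, at most 0.486 CPM, and no difference was detectable at this depth. In spleens Batf3 lay between 1.84 and 5.45 CPM, and the 3 genotypes overlapped.

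Batf (ENSMUSG00000034266, chromosome 12, 85686669 to 85709087, plus strand), which encodes the family member needed for TH17 cells and effector CD8 T cells, moved little beside Batf3. In null cells it had 58.4, 43.9 and 41.3 CPM with the empty vector, 42.1, 37.2 and 43.3 CPM with N642H and 44.2, 36.8 and 48.1 CPM with Y665F, and all 5 vectors overlapped. The log2 fold changes against the empty vector lay between −0.26 and −0.06 in null cells. In WT cells the N642H libraries had 22.8, 29.9 and 41.3 CPM against 38.1, 47.6 and 44.4 CPM with the empty vector. That difference was −0.45 (adjusted p = 0.455), and −0.69 (adjusted p = 0.0492) without the libraries numbered 3. After the mean of each background was subtracted, Batf and Batf3 had a Pearson r of −0.61 across the 30 CD4 libraries. This value describes libraries that share scaling and may share cultures. Batf was listed at 24.5, 16.6, 15.6 and 15.97 CPM in Y665F T cells with interleukins and at 8.57, 13.1, 10.4 and 10.4 CPM in Y665H cells, which did not overlap (log2 difference 0.80, adjusted p = 0.0683).

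BATF partners were taken as Irf4 and Irf8. Irf8 was higher with Y665F than with the empty vector in null cells (log2 fold change 1.41, adjusted p = 0.0462), and with the replicate block also with N642H (1.53, adjusted p = 0.000779). Both partners were higher with N642H in WT cells, Irf4 by 0.86 (adjusted p = 0.0294) and Irf8 by 2.24 (adjusted p = 0.0496). Without the libraries numbered 3 these values were 1.12 (adjusted p = 0.00212) and 2.20 (adjusted p = 0.000809), and both partners also passed with Y665F, Irf4 at 0.89 (adjusted p = 0.0109) and Irf8 at 1.76 (adjusted p = 0.00493). Among splenic T cells Irf8 was higher in Y665F than in WT cells by 1.53 (adjusted p = 0.0356), a call lost without the Y665F replicate 3 that stood apart (1.35, adjusted p = 0.101). Both were higher in Y665F than in Y665H cells, Irf8 by 3.12 (adjusted p = 9.67e-05) and Irf4 by 0.82 (adjusted p = 0.034). Both were also higher with interleukins than without, Irf8 by 2.51 and Irf4 by 1.36. Without replicate 3 the values against Y665H were 2.93 (adjusted p = 0.000141) for Irf8 and 0.90 (adjusted p = 0.0271) for Irf4, and those for interleukins were 2.33 (adjusted p = 0.00112) and 1.44 (adjusted p = 0.000719). B cells express Irf8 as well, and 5 of 8 B-cell markers were higher in Y665F than in Y665H cells, whose part in the Irf8 values was not tested. Neither partner passed in spleens.

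Junb (ENSMUSG00000052837, chromosome 8, 84974484 to 84978718, minus strand) encodes a JUN protein that pairs with BATF in T cells. It lies across Prdx2 on the opposite strand, and because the strand setting of the counting is not given in the sources used here, reads of these genes may not have been separated. In null cells Junb had 368, 385 and 489 CPM with the empty vector and 409.8, 418 and 403 CPM with Y665H. It had 549.5, 504.5 and 567 CPM with STAT5B, 595, 583 and 629 CPM with N642H and 668, 564 and 653 CPM with Y665F. The libraries with STAT5B, N642H and Y665F all lay above those with the empty vector and with Y665H, which overlapped each other. Junb was higher with N642H (log2 fold change 0.50 ± 0.11 SE, adjusted p = 0.00696) and with Y665F (0.57 ± 0.11 SE, adjusted p = 0.00373). Both calls held with each library left out. The STAT5B value was 0.38 (adjusted p = 0.103), passing with the replicate block (adjusted p = 0.0122) and, at 0.50, without null empty-vector replicate 3 (adjusted p = 0.0269).

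In WT cells Junb lay between 381 and 667 CPM with all vectors overlapping, and the log2 fold changes were at most 0.23. The Y665F response did not differ between backgrounds past the threshold (log2 difference 0.54, adjusted p = 0.443), and with a replicate block in each background it did (0.55, adjusted p = 0.0337). Splenic T cells had far less Junb, 5.66, 19.7, 54.9 and 10.95 CPM in WT cells and 25.5, 22.3, 9.76 and 18.6 CPM in Y665F cells with interleukins. Y665F cells without interleukin had 9.64, 5.19 and 6.37 CPM, all below the Y665F cells with interleukins, with a log2 difference of 1.46 that missed the threshold (adjusted p = 0.15) and passed without the libraries under 5000000 reads (1.68, adjusted p = 0.0307).

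Jun (ENSMUSG00000052684, chromosome 4, 95049034 to 95052222, minus strand) encodes c-JUN, the founding AP-1 subunit, and overlaps the antisense gene Junos. In null cells it had 9.68, 10.8 and 20.0 CPM with the empty vector, 15.5, 20.5 and 23.7 CPM with N642H and 17.1, 19.1 and 21.3 CPM with Y665F. Replicate 3 of the empty vector lay among the other vectors, and without it Jun passed for N642H (log2 fold change 0.92, adjusted p = 0.00465) and Y665F (0.88, adjusted p = 0.00747), as it did with the replicate block at 0.56 (adjusted p = 0.00984) and 0.53 (adjusted p = 0.0161). With every library included, the values were 0.52 (adjusted p = 0.167) and 0.48 (adjusted p = 0.233). With Y665H Jun had 8.75, 11.3 and 13.6 CPM, all below the 16.5, 18.2 and 17.8 CPM with STAT5B (log2 difference −0.61, adjusted p = 0.343, and −0.65 with the replicate block, adjusted p = 0.0163).

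In splenic T cells with interleukins, Jun had 124, 63.7, 46.4 and 87.3 CPM in Y665F cells and 22.3, 27.2, 28.6 and 24.5 CPM in Y665H cells. All Y665F libraries lay above all Y665H libraries, and the WT libraries with 26.4, 93.2, 129.7 and 36.3 CPM spread over both. Jun was higher in Y665F than in Y665H cells at a log2 fold change of 1.65 ± 0.39 (SE, adjusted p = 0.0125), which was 1.83 without the Y665F replicate 3 that stood apart (adjusted p = 0.00551). Y665H against WT gave −1.48 without passing (adjusted p = 0.206).

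Jund (ENSMUSG00000071076, chromosome 8, 70698949 to 70700616, plus strand) encodes JUND and overlaps the antisense gene Gm11175. Null cells with the empty vector had 406, 553 and 452 CPM and WT cells 636, 1071 and 707 CPM, with no overlap. The difference of −0.77 (standard error 0.22, adjusted p = 0.019) was lost without null replicate 1 (adjusted p = 0.0912) or 3 (adjusted p = 0.063) and without WT replicate 2 (−0.51, adjusted p = 0.192). With STAT5B the null cells had 717, 769.5 and 547 CPM, with N642H 647, 649.6 and 591 CPM, with Y665F 745, 648 and 422 CPM and with Y665H 547, 427 and 348 CPM. Jund passed under the replicate block for STAT5B (0.50, adjusted p = 0.0205) and N642H (0.38, adjusted p = 0.0471), and Y665H was below STAT5B (−0.60, adjusted p = 0.0121). In WT cells the direction was the other way for N642H and Y665F, at −0.40 each, and Y665F reached −0.85 without the libraries numbered 3 (adjusted p = 0.0133). The difference of the N642H responses between backgrounds was 0.84 (adjusted p = 0.346), and 0.83 with a block in each background (adjusted p = 0.0453).

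Fos (ENSMUSG00000021250, chromosome 12, 85473890 to 85477273, plus strand), the classic immediate-early gene, passed for no vector in CD4 cells. In null cells it had 10.5, 9.77 and 8.98 CPM with the empty vector and 7.41, 6.58 and 6.32 CPM with Y665H, which did not overlap (log2 fold change −0.51, adjusted p = 0.896). WT cells with the empty vector had 20.6, 18.2 and 11.5 CPM, above all null empty-vector libraries, and the difference of −0.78 missed the threshold (adjusted p = 0.0566) and passed without the WT libraries numbered 3 (−0.98, adjusted p = 0.000908). The null libraries numbered 3 were also the lowest for Fos with every vector and were kept there, so this exclusion is one-sided.

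Fos varied widely in splenic T cells. WT cells had 21.5, 78.3, 81.3 and 14.8 CPM, Y665H cells 11.1, 7.29, 12.9 and 9.87 CPM and Y665F cells 38.3, 44.5, 11.9 and 20.1 CPM with interleukins. Y665F cells without interleukin had 6.75, 9.55 and 5.36 CPM. The unstimulated libraries lay below all 4 stimulated Y665F libraries, and the Y665H libraries lay below all WT libraries. Fos was 4.03-fold higher with interleukins than without in Y665F cells (log2 fold change 2.01, standard error 0.50, adjusted p = 0.0198). The call was lost without stimulated replicate 2 (adjusted p = 0.0659) and without unstimulated replicate 1 (adjusted p = 0.138) or 3 (adjusted p = 0.127), and the value was 2.25 without stimulated replicate 3 (adjusted p = 0.00388). Of 6 heat-shock genes 2 were also higher with interleukins, with summed levels of 921 to 3329 CPM against 623.5 to 861 CPM, and their part in the Fos and Fosl2 levels was not tested. Y665H against WT gave −2.22 on the log2 scale, which missed the threshold (adjusted p = 0.0667) and passed in DESeq2 (−2.12, adjusted p = 0.00124).

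In spleens Fos had 3.52, 2.49, 3.13 and 3.09 CPM in WT mice and 4.68, 10.8, 3.73, 4.22 and 5.22 CPM in Y665H mice. The 7 Y665F spleens ranged from 2.42 to 3.87 CPM with a median of 3.38 CPM. All Y665H spleens lay above all WT spleens, replicate 2 far above the rest, and the Y665F spleens overlapped both. Fos was higher in Y665H than in WT spleens at a log2 fold change of 0.91 ± 0.26 (SE, adjusted p = 0.018) and lower in Y665F than in Y665H (−0.80, standard error 0.22, adjusted p = 0.0111). Without Y665H replicate 1, which stood apart in its erythroid markers, these were 1.01 (adjusted p = 0.00927) and −0.89 (adjusted p = 0.00567). Without Y665H replicate 2 the values were 0.54 (adjusted p = 0.0324) and −0.43 (adjusted p = 0.0406), and the first was lost without WT replicate 2 (adjusted p = 0.0665). Replicate 2 also had the highest summed level of 6 heat-shock genes, 2683 CPM, and 7 of 8 neutrophil markers were higher in Y665H than in WT spleens. The part of either in the Fos level was not tested.

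Fosl2 (ENSMUSG00000029135, chromosome 5, 32135801 to 32157842, plus strand) encodes FRA-2, a FOS protein that persists longer after stimulation. In null cells it had 21.2, 35.1 and 32.0 CPM with the empty vector, 37.1, 58.4 and 53.1 CPM with N642H and 45.3, 57.2 and 38.8 CPM with Y665F. Both variants lay above the empty vector in all libraries, at log2 fold changes of 0.71 (adjusted p = 0.075) and 0.65 (adjusted p = 0.118), and both passed with the replicate block at 0.72 (adjusted p = 0.00311) and 0.68 (adjusted p = 0.00517). In WT cells Y665F had 30.6, 33.1 and 39.9 CPM against 38.8, 43.5 and 50.5 CPM (log2 fold change −0.35, adjusted p = 0.355). The difference between these Y665F responses was 1.04 (adjusted p = 0.226), and 1.07 with a block in each background (adjusted p = 0.00305).

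Stimulated Y665F splenic T cells had 55.4, 54.4, 34.8 and 76.6 CPM of Fosl2, stimulated Y665H cells 11.7, 21.9, 28.9 and 15.7 CPM and unstimulated Y665F cells 19.6, 23.6 and 19.2 CPM. The stimulated Y665F libraries lay above both other groups, and the WT libraries with 45.9, 29.5, 33.0 and 19.9 CPM overlapped them. Fosl2 was higher in Y665F than in Y665H cells at a log2 fold change of 1.49 ± 0.29 (SE, adjusted p = 0.00246) and higher with interleukins than without at 1.42 ± 0.31 (SE, adjusted p = 0.00716). Without Y665F replicate 3 these were 1.65 (adjusted p = 0.000788) and 1.58 (adjusted p = 0.00137). The first held with each library left out, and the second was lost without unstimulated replicate 1 (adjusted p = 0.0756) or 3 (adjusted p = 0.0595). Against WT the value was 0.79 (adjusted p = 0.123), and 0.99 without the libraries under 5000000 reads (adjusted p = 0.0476).

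Nfatc1 (ENSMUSG00000033016, chromosome 18, minus strand), the NFAT gene whose own transcript is raised by sustained calcium signals, overlaps the antisense gene AC123818.1. It passed for no vector in CD4 cells, with 254, 470.1 and 415 CPM for the empty vector, 279, 336 and 279.7 CPM for N642H and 230.5, 355 and 309.7 CPM for Y665F in null cells. Log2 fold changes against the empty vector came to −0.39 (adjusted p = 0.313) and −0.38 (adjusted p = 0.355). In WT cells the empty vector had 209, 206 and 389 CPM, and null against WT cells with the empty vector gave 0.50 (adjusted p = 0.22), which was 0.88 without the WT libraries numbered 3 (adjusted p = 0.00701). The 4 groups of splenic T cells overlapped, from 57.6 to 124 CPM. In spleens it had 142.8, 185, 170.0 and 179 CPM in WT mice, 207.5, 130.3, 144.5, 154 and 145 CPM in Y665H mice and 180.2, 188 and 220.1 CPM as the lowest, median and highest value in Y665F mice. Only replicate 1 of the Y665H spleens, which stood apart in its erythroid markers, reached the Y665F range. Y665F spleens exceeded Y665H spleens in Nfatc1 by 0.31 on the log2 scale (standard error 0.098, adjusted p = 0.0253), and without Y665H replicate 1 by 0.41 (adjusted p = 0.00034). The call was lost without Y665H replicate 2 (adjusted p = 0.0831) or Y665F replicate 5 (adjusted p = 0.06) or 7 (adjusted p = 0.0551). In this comparison 12 of 12 T-cell markers were also higher in Y665F spleens, with summed levels of 1021 to 1363 CPM against 555 to 818 CPM, and their part in the Nfatc1 level was not tested.

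Nfil3 (ENSMUSG00000056749, chromosome 13, 52967209 to 52981073, minus strand) was the gene of the 10 that passed in most comparisons, 6 of 21. In null cells it had 16.5, 15.97 and 18.3 CPM with the empty vector, 24.2, 26.3 and 22.4 CPM with STAT5B and 23.8, 22.6 and 29.3 CPM with Y665H. With N642H it had 34.1, 37.5 and 33.1 CPM and with Y665F 41.4, 35.0 and 26.4 CPM. The empty vector lay below every other vector, STAT5B and Y665H overlapped, and N642H lay above both of them. The log2 fold change was 1.01 for N642H (standard error 0.15, adjusted p = 0.000288) and 0.99 for Y665F (standard error 0.15, adjusted p = 0.000412), and both calls held with each library left out. Y665H, 0.60 above the empty vector with no overlap, had an adjusted p of 0.896 in a comparison where 0.0249% of all genes passed. STAT5B, at 0.52, missed the threshold (adjusted p = 0.0901) and passed with the replicate block (adjusted p = 0.0259).

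WT cells held more Nfil3, with 34.5, 53.0 and 25.6 CPM for the empty vector, 96.5, 85.5 and 34.4 CPM for N642H and 48.02, 78.2 and 29.7 CPM for Y665F. The libraries numbered 3 were the lowest for every vector. With them the N642H value of 0.95 missed the threshold (adjusted p = 0.352), and without them it passed (1.07, adjusted p = 0.0105). Since these libraries stood out by Nfil3 itself, the second p-value is no separate support. Null cells with the empty vector were lower than WT cells (log2 difference −1.16, standard error 0.32, adjusted p = 0.0142) with no overlap, and the call was lost without null replicate 2 (adjusted p = 0.0607) or WT replicate 2 (adjusted p = 0.144).

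**Figure D3:**
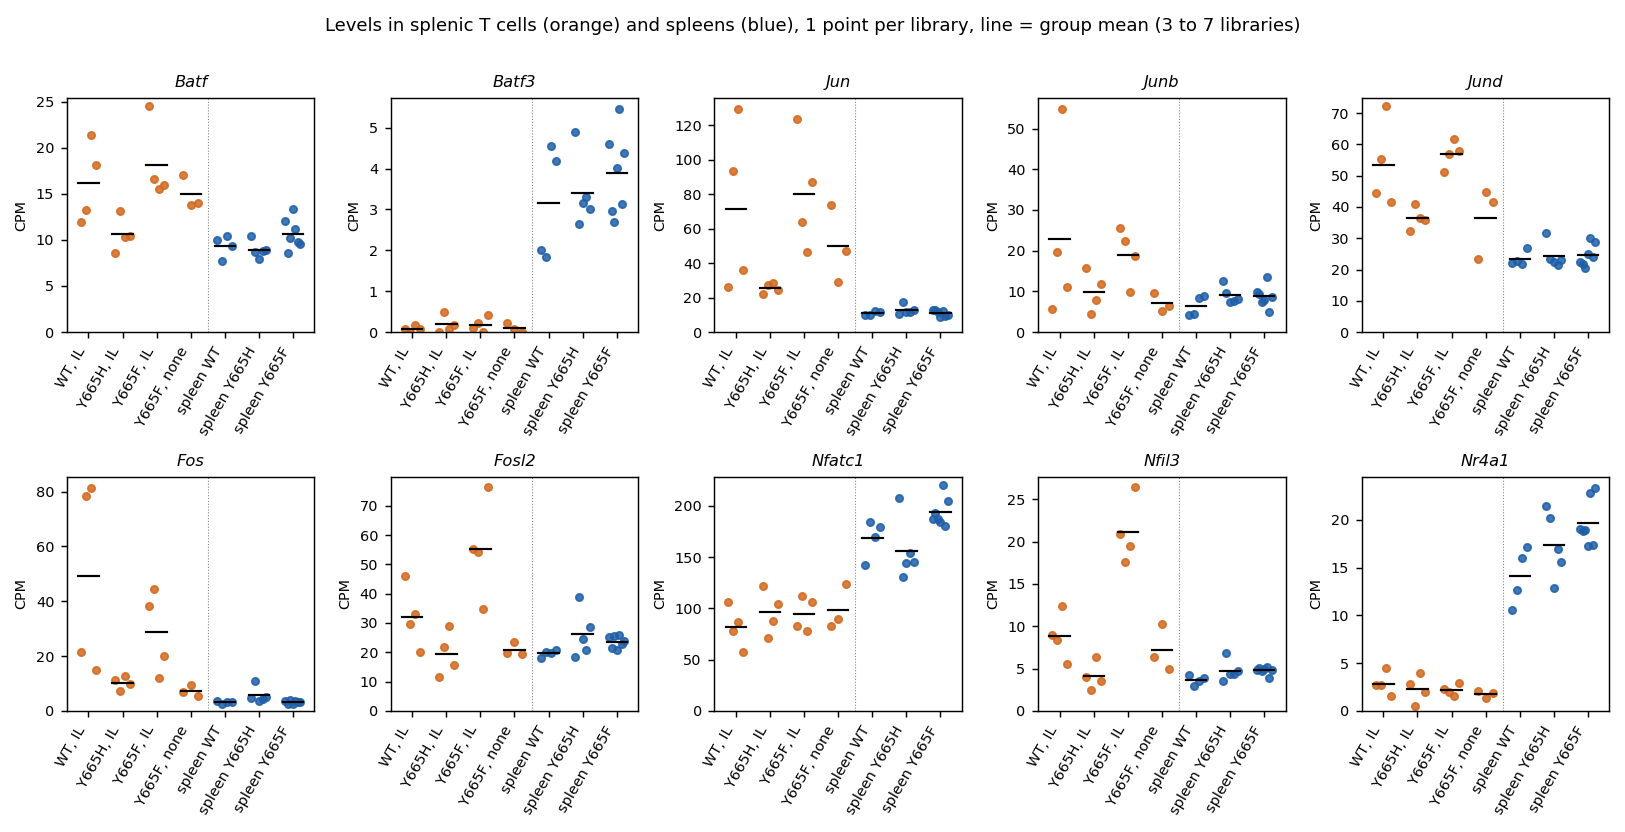
CPM of each of the 10 genes (vertical axis from 0) in splenic T cells (orange) and spleens (blue), with 1 point per library and a line at the group mean of 3 to 7 libraries, where IL marks culture with IL-2 and IL-7. Nfil3 in Y665F T cells with interleukins lies between 17.6 and 26.4 CPM, above every other T-cell group.

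In splenic T cells, 1 of the 10 genes passed for Y665F against WT (1.87% of all 22313 genes), 0 for Y665H against WT (0.0762%), 3 for Y665F against Y665H (6.18%) and 3 for interleukins against none in Y665F cells (3.85%). Without Y665F replicate 3 the counts were 1 for Y665F against WT (0.858% of all genes), 4 against Y665H (4.70%) and 3 for interleukins (5.59%). For Y665H against WT, 7 of the 10 genes and 1981 of all 22313 genes had an unadjusted p under 0.05 in edgeR's test. DESeq2 called 1 of the 10 there. Over the 10 genes the median log2 fold change was 0.17, −0.66, 0.87 and 0.92 in this order, and that of all genes was 0.069, −0.11, 0.13 and −0.13. The first 3 comparisons share groups with each other, and the last has the stimulated Y665F libraries in common with 2 of them. The last also sets cells cultured for 24 h against cells without a stated culture time. For Y665F against Y665H, RLE size factors and DESeq2 each gave 6 genes, all higher in Y665F, by adding Batf, Jund and Fos.

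Nfil3 was the gene that passed in 3 of these 4 comparisons. It had 20.9, 17.6, 19.5 and 26.4 CPM in stimulated Y665F cells, 8.98, 8.38, 12.4 and 5.51 CPM in WT cells, 3.997, 2.43, 6.395 and 3.47 CPM in Y665H cells and 6.32, 10.3 and 4.89 CPM in unstimulated Y665F cells. The Y665H values rest on 14, 5, 92 and 19 reads. The stimulated Y665F libraries lay above all others, and the other groups overlapped in part. The log2 fold change was 1.26 against WT (standard error 0.30, adjusted p = 0.0322), 2.28 against Y665H (standard error 0.33, adjusted p = 0.000196) and 1.56 against unstimulated Y665F cells (standard error 0.34, adjusted p = 0.00719). Against WT the call was lost without WT replicate 2 (adjusted p = 0.102) or 4 (adjusted p = 0.104) or Y665F replicate 4 (adjusted p = 0.146). Against unstimulated cells it was lost without unstimulated replicate 1 (adjusted p = 0.0763) or 3 (adjusted p = 0.0795), and against Y665H it held with each library left out.

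Without the Y665F replicate 3 that stood apart, the Nfil3 values were 1.29 (adjusted p = 0.049), 2.30 (adjusted p = 0.000238) and 1.59 (adjusted p = 0.00596). Markers of other cells moved with these groups. Neutrophil markers were higher in Y665F than in WT cells for 5 of 8 genes, with summed levels of 71.4 to 301 CPM against 6.32 to 14.1 CPM. B-cell markers summed to 20.7 to 722 CPM in stimulated Y665F cells and 25.7 to 44.2 CPM in Y665H cells, NK-cell markers were higher in Y665F than in Y665H cells for 4 of 4, and T-cell markers summed to 1356 to 3348 CPM in stimulated Y665F and 3036 to 4031 CPM in WT cells. With all libraries Cd4 was lower in Y665F than in WT cells (log2 fold change −1.16, adjusted p = 0.029 in edgeR's test). Cd8a did not pass (0.14, adjusted p = 0.703). The paper cautions that the proportions of T-cell subsets differ between the genotypes. The part of these cells and subsets in the Nfil3, Jun and Fosl2 levels was not tested.

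In spleens, 1 of the 10 genes passed for Y665F against WT (12.2% of all 19418 genes), 1 for Y665H against WT (19.8%) and 2 for Y665F against Y665H (25.8%), so that these counts lay below the share of all genes. Nfil3 lay between 2.88 and 6.88 CPM and passed in none of the 3, with 0.40 for each genotype against WT and adjusted p-values of 0.0977 and 0.101. Without Y665H replicate 1, which stood apart, Nfil3 passed for Y665H against WT (0.52, adjusted p = 0.0197), and so did Fosl2 (0.55, adjusted p = 0.00921), which made 3 of 10 for Y665H against WT (24.8% of all genes) beside 2 for Y665F against Y665H (33.4%). Over all spleens Batf lay between 7.74 and 13.4 CPM, Jun between 8.69 and 17.6 CPM, Junb between 4.08 and 13.5 CPM, Jund between 20.3 and 31.7 CPM and Fosl2 between 18.2 and 39.0 CPM. The genotypes overlapped for each of these 5 genes, and none passed.

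**Figure D4:**
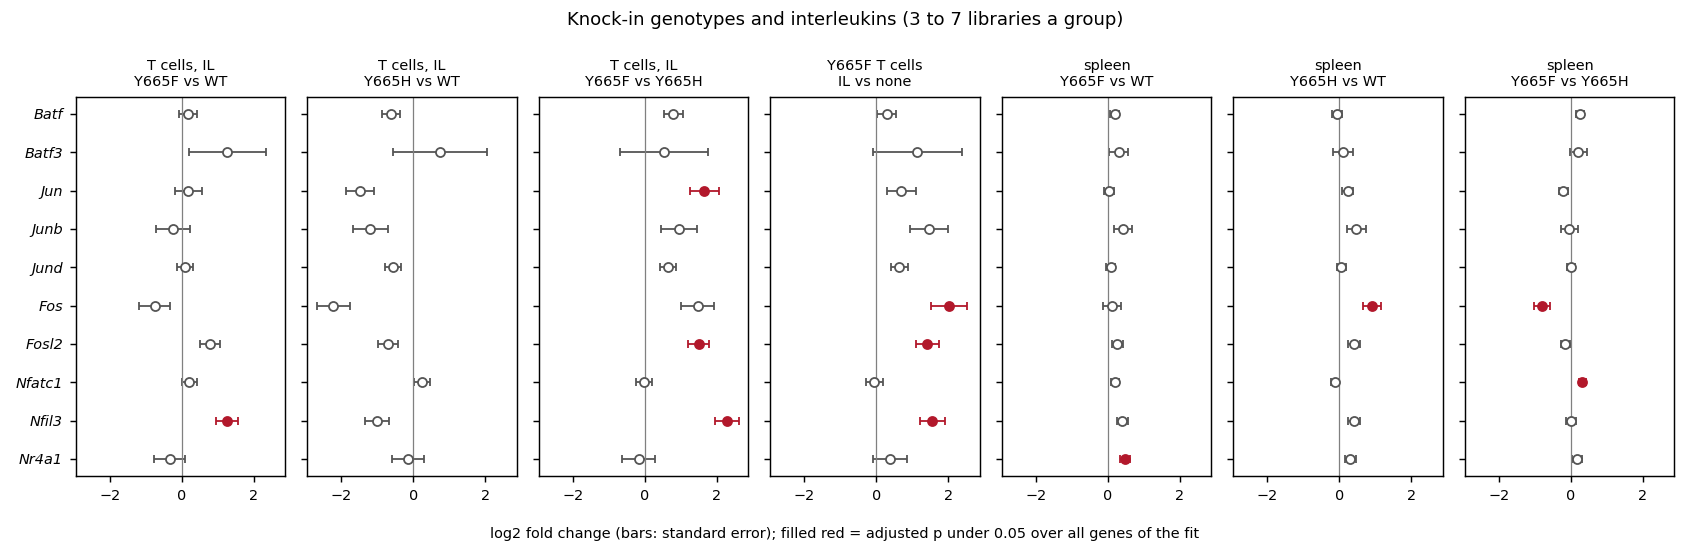
Log2 fold change of the 10 genes (horizontal axis, bars for the standard error) in 4 comparisons of splenic T cells and 3 of spleens, with 3 to 7 libraries a group, filled red where the adjusted p is under 0.05. Nfil3 is filled in 3 T-cell panels at 1.26, 2.28 and 1.56, and the filled spleen points lie between −0.80 and 0.91.

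Nr4a1 (ENSMUSG00000023034, chromosome 15, 101254269 to 101274795, plus strand) had 146, 260.1 and 265 CPM with the empty vector, 277, 325 and 273 CPM with N642H and 247, 339.9 and 284 CPM with Y665F in null cells. The values of 0.34 for each had adjusted p-values of 0.404 and 0.428. In WT cells N642H had 144, 157 and 287 CPM against 235, 230.0 and 316 CPM with the empty vector, and Y665F had 162.5, 125 and 280.1 CPM. Library 3 was the highest for every vector. Without the libraries numbered 3 Nr4a1 was lower with N642H (−0.62, adjusted p = 0.0187) and with Y665F (−0.69, adjusted p = 0.0095). These libraries stood out by Nr4a1 itself, so those p-values are no separate support. With all libraries the values were −0.39 and −0.44. The difference of the responses between backgrounds was 0.79 for N642H (adjusted p = 0.487) and 0.84 for Y665F (adjusted p = 0.504), and with a block in each background it was 0.87 (adjusted p = 0.0122) and 0.91 (adjusted p = 0.00941).

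Nr4a1 was low in splenic T cells, from 0.486 to 4.45 CPM, and the 4 groups overlapped. In spleens it had 10.6, 12.6, 15.99 and 17.1 CPM in WT mice, 17.3, 18.9 and 23.4 CPM as the lowest, median and highest value in Y665F mice and 12.8 to 21.4 CPM in Y665H mice. The Y665F spleens lay just above the WT spleens. Nr4a1 was higher in Y665F than in WT spleens at a log2 fold change of 0.48 ± 0.15 (SE, adjusted p = 0.0425), and the call was lost without WT replicate 1 (adjusted p = 0.167) or 2 (adjusted p = 0.127) or Y665F replicate 5 (adjusted p = 0.0766) or 7 (adjusted p = 0.0748). T-cell markers were higher in Y665F than in WT spleens for 7 of 12 genes, with 1021 to 1363 CPM summed against 810 to 937 CPM, and their part in the Nr4a1 level was not tested.

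The other genes of these pathways were read from lists. Of 16 further AP-1 and zipper factors, 5 were higher and 1 lower with N642H in null cells, where 11.6% of all genes passed, and 4 were higher and 2 lower with Y665F, where 9.58% did, at list medians of 0.22 and 0.10 on the log2 scale beside 0.012 and −0.024 for all genes. Atf3, a stress-induced factor, was higher with N642H by 2.33 (adjusted p = 0.00857) and with Y665F by 2.13 (adjusted p = 0.0169). Crem, which gives rise to the repressor ICER, was higher by 0.95 and 0.92, and Atf4, the factor of the amino acid response, by 0.55 and 0.54. None of the list passed with STAT5B or Y665H. Set against STAT5B, Y665H also gave none, and with the replicate block 1 was higher and 3 were lower (4.18% of all genes). With the replicate block, 7 were higher and 3 lower with N642H (20.5% of all genes), 7 higher and 4 lower with Y665F (18.4%), 2 higher and 2 lower with STAT5B (9.50%) and 0 passed with Y665H (0.149%). Atf3 was the 1 gene of the list higher in WT cells with N642H and with Y665F, by 2.33 (adjusted p = 0.0142) and 2.00 (adjusted p = 0.0383), where 1.52% and 1.26% of all genes passed. Without the libraries numbered 3 Atf3 had 2.39 (adjusted p = 5.52e-06) and 2.12 (adjusted p = 2.03e-05), and 4 of the list were higher with N642H (5.59%), 2 with Y665F (7.78%) and 1 with STAT5B (0.662%). Between null and WT cells with the empty vector 5 were higher and 2 lower in null cells (13.9% of all genes passed), led by Maf, a factor of TH2 and TFH cells, at 4.07, Jdp2 at 1.89 and Atf4 at −0.47.

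For splenic T cells the same list, with 15 genes tested, had 1 gene lower in Y665F than in Y665H cells, Bach1 at −1.03 (adjusted p = 0.00159), where 6.18% of all genes passed, and 1 gene higher with interleukins, Crem at 1.21 (adjusted p = 0.00626), where 3.85% did. Without the Y665F replicate 3 that stood apart they were −0.88 (adjusted p = 0.00363) and 1.35 (adjusted p = 0.00114), and Atf4 also passed with interleukins (0.90, adjusted p = 0.0292). In Y665H spleens 3 genes were higher and 1 lower than in WT spleens (19.8% of all genes passed), with Mafk at 0.84, Mafg at 0.87 and Atf4 at 0.50. Small MAF proteins serve erythroid cells, and 3 of 5 erythroid markers tested were higher in the same comparison, whose part was not tested. Between Y665F and Y665H spleens 3 were higher and 3 lower in Y665F (25.8% of all genes), with Mafk at −0.69, Atf4 at −0.51 and Atf7 at 0.33. Without Y665H replicate 1 the counts were 4 and 2 for Y665H against WT (24.8%) and 3 and 7 for Y665F against Y665H (33.4%).

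Of 14 further NFAT and calcineurin genes, few passed in CD4 cells. Rcan1, a calcineurin inhibitor, was the 1 gene of the list to pass with N642H in null cells (11.6% of all genes), where it was lower (−0.97, adjusted p = 0.00703), and it was higher in null than in WT cells with the empty vector (1.11, adjusted p = 0.00951). Ppp3ca, a catalytic calcineurin subunit, was lower with N642H in WT cells (−0.58, adjusted p = 0.042), and at −0.80 without the libraries numbered 3 (adjusted p = 0.00527). None passed with Y665F in either background (9.58% of all genes in null and 1.26% in WT cells), but Rcan1 did in null cells with the replicate block (−0.64, adjusted p = 0.000993), and without the libraries numbered 3 Ppp3cc at 0.60 (adjusted p = 0.0463) and Ppp3ca at −0.56 (adjusted p = 0.0365) did in WT cells. Splenic T cells had Rcan3 lower in Y665F than in WT (−1.10, adjusted p = 0.0275, and −0.92 without Y665F replicate 3, adjusted p = 0.0891) and than in Y665H cells (−1.44, adjusted p = 0.00148), and Ppp3cc was higher than in Y665H cells (1.15, adjusted p = 0.00572). Nfatc2, the NFAT protein present in resting T cells, was higher in Y665F than in WT spleens by 0.39 (adjusted p = 0.0108) and than in Y665H spleens by 0.55 (adjusted p = 0.000246), in comparisons where T-cell markers were higher too. Against WT, 2 of the list were higher in Y665F spleens (12.2% of all genes passed), and in Y665H spleens 1 was higher and 4 were lower (19.8%). Without Y665H replicate 1 the latter were 1 and 5, and Nfatc2 in Y665F spleens was 0.63 above Y665H spleens (adjusted p = 3.21e-06).

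Of 13 further NR4A and early-response genes, Btg2, an antiproliferative gene, was lower in null cells with STAT5B (−0.83, adjusted p = 0.00658), with N642H (−1.13, adjusted p = 9e-05) and with Y665F (−1.08, adjusted p = 0.000167). It was higher in null than in WT cells with the empty vector by 1.58 (adjusted p = 6.66e-06). Tnfaip3, which restrains NF-kB, was lower with N642H in null cells (−0.62, adjusted p = 0.0429). Ier5 was lower with Y665H than with STAT5B in null cells (−0.53, adjusted p = 0.0459), where 0.229% of all genes passed. In that comparison the replicate block gave 1 of the list higher and 5 lower (4.18%). With the replicate block 3 of the list were higher in null cells with N642H and 3 were lower (20.5% of all genes passed), and 3 were higher and 2 lower with Y665F (18.4%), Nr4a3 at 1.30 (adjusted p = 0.000223) and 1.16 (adjusted p = 0.000739) among those that rose. None of the list passed with a vector in WT cells, and without the libraries numbered 3 there were 2 genes lower with Y665F, Zfp36 (−0.80, adjusted p = 0.00471) and Srf (−0.58, adjusted p = 0.0426). Among splenic T cells 4 of the 13 were higher and 1 lower in Y665F than in Y665H cells, where 6.18% of all genes passed. With all libraries Btg2 was at −1.04, Tnfaip3 at 1.86 and Nr4a3, a close relative of Nr4a1, at 1.35. Without Y665F replicate 3 the counts were 3 higher and 1 lower (4.70%). Against WT, Btg2 was lower in Y665F cells (−0.90, adjusted p = 0.0112) as the 1 gene of the list to pass, beside 1.87% of all genes. Without replicate 3, 1 of the list was also lower (0.858%). In Y665H spleens Dusp1 was higher than in WT by 1.07 (adjusted p = 0.00234), Btg2 by 0.54 and Nr4a3 was lower (−0.48, adjusted p = 0.00329), where 19.8% of all genes passed. Without Y665H replicate 1, 2 of the 13 were higher and 4 lower (24.8%). Between Y665F and Y665H spleens 4 were higher and 2 lower in Y665F (25.8% of all genes). Nr4a3 was at 0.61 (adjusted p = 0.000106), Dusp1 at −1.16 (adjusted p = 0.000151) and Btg2 at −0.43 (adjusted p = 0.00207). T-cell markers were also higher in this comparison, and their part was not tested. Without Y665H replicate 1 the counts were 5 and 2 (33.4%).

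The genes most like the 3 that rose in null cells were named over the 30 CD4 libraries, by Pearson r of log2 CPM after subtraction of the mean of each background, among 11459 genes. They were Arhgdig (0.949), Fam198a (0.925) and Sema7a (0.922) for Batf3. For Nfil3 they were Vim (0.925), Il10ra (0.903) and Cndp2 (0.895), and for Junb they were Aard (0.894), Aaas (0.867) and Plekhj1 (0.861). Among the 10 genes themselves, the highest r was 0.773, between Batf3 and Nfil3. The libraries share vectors and scaling and may share cultures, and these values are a description.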

How the data were processed

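Bulk RNA was sequenced from 61 libraries in 17 groups, with a TruSeq stranded total RNA kit after removal of ribosomal RNA and paired-end reads on a NovaSeq. The authors' deposited values are raw counts of reads per gene, for 24421 genes in each library. The submitters' processing notes name FastQC 0.11.9, Trimmomatic 0.36, STAR, SAMtools 1.9, Picard 2.9.2, HTSeq 0.9.1 and the build mm10. The annotation and the strand setting of the counting are not given in the sources used here. Between 28.4% and 36.9% of reads in CD4 libraries, 63.9% and 85.7% in splenic T cells and 62.8% and 69.4% in spleens were assigned to no gene and stayed out of the library sizes. No pair of libraries held identical values.

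Groups were taken from the sample titles and labels. Genes with at least 10 reads over the libraries of a fit were kept, scaled by TMM and tested with edgeR 4.0.16 (quasi-likelihood test, R 4.3.3), with Benjamini-Hochberg adjustment over all genes of the fit. Null CD4 cells, WT CD4 cells, all CD4 cells together, splenic T cells and spleens were fitted separately, which gave 5 fits and 21 comparisons. Levels are TMM-scaled CPM, and standard errors were derived from the fold change and the F statistic. The scripts were tested on simulated data. RUVSeq, named in the study's methods, was not used. Levels of splenic T cells rest on the fewest reads and are the least precise.

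The 10 genes and all lists were chosen with earlier results of these data known. All 10 are described in every group. Up to 3 genes of a list are named per comparison, those with the smallest adjusted p under 0.05. Listed genes whose call changed without the libraries that stand apart, or with the replicate block, were named after their values were seen. Gene positions are from GENCODE vM21 on GRCm38, and promoters are from RefSeq.

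Replicate numbers recur across groups. In null CD4 cells, over 11477 genes, the deviations from the group means correlated above 0.1 in 30 of 30 pairs that shared a number (median r 0.465, lowest 0.184), and the median over other pairs was −0.262. This is a hint from the data that numbers mark shared cultures or days, since the labels do not say so, and the value with the number as a block is given beside the null results where it changes a call.

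Alternatives were RLE size factors, filterByExpr, no filter, DESeq2 1.42.0, only the groups compared, the replicate block and a log2 fold change beyond 1. Others were splenic T cells without libraries under 5000000 reads and each library left out in turn. The share of all genes that passed is not given for DESeq2 and RLE size factors.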

Additional observations from a re-analysis of the deposited data

Results flagged for a closer look

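Among 60 sets of values (each of the 10 genes in each group of 4 to 7 libraries), 4 held a library that lay far from the rest by Dixon's test at the 95% level, and chance gives about 1 in 20. Batf was 24.53 CPM in replicate 1 of the Y665F splenic T cells with interleukins, where the other 3 libraries had 15.55 to 16.57 CPM. Jund was 31.66 CPM in replicate 1 of the Y665H spleens, the library with the low erythroid markers, where the others had 21.37 to 23.28 CPM. Fos was 10.81 CPM in replicate 2 of the Y665H spleens, where the others had 3.731 to 5.215 CPM. Nfil3 was 3.893 CPM in replicate 6 of the Y665F spleens, where the others had 4.76 to 5.213 CPM.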

How the results depend on the processing

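Over the 10 genes and 21 comparisons, 63 gene results passed in at least 1 setting and 20 as reported, and 0 of 890 alternative values of these changed sign. The 63 were picked for passing and the settings refit largely the same libraries, so changes of sign were unlikely from the start. Counts of the 10 genes that passed moved as follows, and the cause was not tested. In null CD4 cells, the replicate block gave 3 for STAT5B, 6 for N642H and 5 for Y665F against the empty vector, and 1 for N642H and 4 for Y665H against STAT5B. DESeq2 gave 2 for STAT5B against the empty vector and 1 for N642H against STAT5B, for which no filter and only the groups compared also gave 1. A log2 fold change beyond 1 left 1 for Y665F.

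In WT CD4 cells, libraries with the same number correlated above 0.1 in 29 of 30 pairs (median r 0.649, lowest 0.0114), short of every pair, so the WT block is given here, and the report holds a WT-side block only for the responses with a block in each background. The block gave 1 for STAT5B, 3 for N642H and 3 for Y665F, and leaving out the libraries numbered 3 gave 1, 4 and 3. DESeq2 and only the groups compared gave 1 for N642H and 1 for Y665F, and no filter gave 1 for N642H. For null against WT cells the block, DESeq2 and leaving out the libraries numbered 3 gave 6 each. The Y665F response gave 1 with the block and 3 with a block in each background, and the N642H response gave 2 with the latter.

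In splenic T cells (5 of 21 pairs above 0.1) the block gave 0 for Y665F against WT, and DESeq2 and leaving out libraries under 5000000 reads gave 2. No filter and DESeq2 gave 1 for Y665H against WT. For Y665F against Y665H, RLE size factors and DESeq2 gave 6, and filterByExpr and only the groups compared gave 5. In spleens (4 of 13 pairs above 0.1) the block and a log2 fold change beyond 1 gave 0 in all 3 comparisons, and only the groups compared gave 3 for Y665F against WT and 0 for Y665H against WT. In other comparisons the block moved no count by over 1.5 times.

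With each library left out in turn the counts ran from 0 to 1 for STAT5B, 3 to 4 for N642H and 3 to 4 for Y665F against the empty vector in null cells, from 0 to 1 for N642H and 0 to 2 for Y665F in WT cells, and from 1 to 6 for null against WT. They reached 1 for STAT5B without null empty-vector replicate 3, 1 and 2 in WT cells without N642H or Y665F replicate 3, and 6 for null against WT without WT empty-vector replicate 3 (1 without WT replicate 2 or null replicate 1 or 2). In splenic T cells they ran from 0 to 1 for Y665F and for Y665H against WT (1 for the latter without WT replicate 1 or 4), 3 to 4 for Y665F against Y665H and 0 to 3 for interleukins against none. In spleens they ran from 0 to 1 for Y665F against WT, 0 to 3 for Y665H against WT (3 when Y665H replicate 1 was left out, 2 when replicate 4 was) and 1 to 3 for Y665F against Y665H. The other comparisons stayed at 0. Depth limits Batf3 and Nr4a1 in splenic T cells, where few reads were counted, and also Nfil3 in Y665H cells. The Y665H libraries held 2017012 to 15896125 reads, against 13695161 to 27394249 in the WT libraries with interleukins.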
